A study of Mus musculus with 14 samples.

Results

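Loss of *Atg16l1* was added to loss of *Rnaseh2b* in the mouse intestinal epithelium, and 4 Atg16l1/Rnaseh2bΔIEC organoid samples were compared with 2 Rnaseh2bΔIEC samples, which are 6 of the 14 samples of the series. Small intestinal organoids are cultures that grow from intestinal stem cells and hold the absorptive and secretory cell types of the epithelium. The Rnaseh2bΔIEC samples carried RNaseH2Bflox/flox_VillinCre+/-, and the Atg16l1/Rnaseh2bΔIEC samples ATG16L1flox/flox_RNaseH2Bflox/flox_VillinCre+/-, so both groups share the deletion of *Rnaseh2b*. Of the other genotypes, the 4 WT samples were ATG16L1flox/flox_RNaseH2Bflox/flox with no Cre in the label, and the 4 Atg16l1ΔIEC samples ATG16L1flox/flox_VillinCre+/-. Rnaseh2bΔIEC was thus the only genotype whose label has no floxed *Atg16l1* allele. Cre was driven by the *Villin* promoter, which is active in intestinal epithelial cells, and no sample was treated. The labels give no age and do not say whether the samples of a genotype came from separate mice, so p-values measure the spread between these samples, which may be technical. The test covered 12804 of the 18781 genes listed, those whose average over the 14 samples reached 10 after undoing the log, and values below are on the log2 scale of the deposited data.

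ATG16L1 is part of the complex that attaches LC3 to the growing autophagosome membrane, the structure that encloses cell contents for delivery to the lysosome. In the intestine the gene is best known as a Crohn's disease risk gene and for the Paneth cell, the granule-filled antimicrobial cell of the crypt. RNASEH2B is a subunit of RNase H2, the enzyme that removes ribonucleotides built into DNA, and cells without it accumulate DNA damage. The comparison asks how organoids that lack RNase H2 differ when the autophagy gene is deleted as well.

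By the column names of the table, both Rnaseh2bΔIEC samples and Atg16l1/Rnaseh2bΔIEC samples 1 and 2 were in lane 2, and Atg16l1/Rnaseh2bΔIEC samples 3 and 4 in lane 1. All WT samples were in lane 1 and all Atg16l1ΔIEC samples in lane 2. By *Xist* and 4 genes of the Y chromosome, the lane 2 samples of both compared genotypes were male and the lane 1 double knockouts female, so lane and sex cannot be told apart among the double knockouts. WT samples 1 and 2 and Atg16l1ΔIEC samples 3 and 4 were male, and WT samples 3 and 4 and Atg16l1ΔIEC samples 1 and 2 female, so the pairs of every genotype with 4 samples coincide with sex. Samples 1 and 2, and samples 3 and 4, of the other genotypes deviated together from their genotype's mean, with correlations across genes of 0.31 to 0.85, and Rnaseh2bΔIEC has only 1 such pair. The results of 2 other fits are therefore given beside the lists. The lane 2 estimate has lane as a covariate, so that its difference is that of the lane 2 samples, which match in lane and sex, tested with the spread of all 14 samples. The other fit lets the samples of a pair correlate. For each list, brackets give the genes that passed in these fits, in the order in which rises and falls are named, and a called gene that lost its call with correlated pairs has that p beside it. Of 8 epithelial markers 1 rose and 2 fell (0 and 1 with correlated pairs, 0 and 2 in lane 2), *Krt18* by 0.24 (adjusted p = 0.18 with correlated pairs) and *Krt20* and *Cdx2* by 0.80 and 0.13 (the latter at 0.22). *Epcam* lay between 14.64 and 14.76 in all 14 samples and *Vil1* between 14.10 and 14.47. Of 25 stromal, endothelial and immune markers listed, 18 were in the table, 8 of these were tested and 0 passed in either direction in any of the 3 fits. The summed linear level of the 18 was 780 to 888 in Atg16l1/Rnaseh2bΔIEC and 799 to 824 in Rnaseh2bΔIEC samples. *Ptprc*, *Cd3e*, *Adgre1* and *Col1a2*, which mark leukocytes, T cells, macrophages and fibroblasts, were among the lowest of them, with genotype means of at most 0.49. The highest of the markers were *Lyve1*, with a mean of 8.45 in Rnaseh2bΔIEC and 8.37 in Atg16l1/Rnaseh2bΔIEC, and *Vim*, with 7.83 and 8.04. Next were the immune markers *Cd68*, with 5.81 and 6.07, and *Itgam*, and then the stromal marker *Pdgfrb*, with 5.38 and 5.31. Immune and stromal markers were thus not all low, and whether such cells were present was not tested.

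*Atg16l1* (ENSMUSG00000026289, GRCm38 chromosome 1 from 87755870 to 87792428) was lower in the double knockouts. It was at 9.52 and 9.53 in Rnaseh2bΔIEC samples and at 8.37, 8.14, 8.57 and 8.47 in Atg16l1/Rnaseh2bΔIEC samples 1 to 4. All 4 double knockouts lay below both single knockouts, with a log2 difference of -1.13 (standard error 0.15, limma adjusted p = 0.00037), and above the Atg16l1ΔIEC samples, which were at 6.73 to 7.35. *Rnaseh2b* (ENSMUSG00000021932, GRCm38 chromosome 14 from 62292589 to 62372992) was at 7.21 and 7.15 in Rnaseh2bΔIEC and at 7.92, 7.68, 7.79 and 7.84 in Atg16l1/Rnaseh2bΔIEC samples, against 8.41 to 8.70 in WT. Both groups lay below WT, and the double knockouts lay above the single knockouts by 0.63 (standard error 0.09, limma adjusted p = 0.00074). The double knockouts thus held more transcript of either target than the single knockout of that gene, and the part of this in the results below was not tested. The values are per gene and do not show the deleted exons.

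Across all genes, 1417 genes rose (11.1% of those tested) and 1845 fell (14.4%) in Atg16l1/Rnaseh2bΔIEC against Rnaseh2bΔIEC, which together makes 25.5% at an adjusted p of 0.05. Most differences were small, with a median size of 0.28 on the log2 scale, and 136 genes exceeded 2-fold, of which 33 rose and 103 fell. All double knockouts lay above both Rnaseh2bΔIEC samples in 24.1% of the genes tested and below both in 25.8%, so groups that do not overlap are common here, and an exact permutation test of 4 samples against 2 cannot go below 0.067. All 3262 genes had the same direction in the lane 2 estimate, which uses the same Rnaseh2bΔIEC samples and the lane 2 double knockouts of the main fit. By itself it passed the threshold for 27.1% of the genes (11.9% higher and 15.2% lower). A fit of the lane 2 samples alone called 2683 genes, or 21%. Each sets the lane 2 pair of double knockouts against the Rnaseh2bΔIEC pair, and neither lets the samples of a pair correlate. With each pair averaged to a single value, limma called 0 genes. The fit with correlated pairs called 692 genes, or 5.4% (1.51% higher and 3.9% lower), all of them among the 3262. The count was 1337 without Rnaseh2bΔIEC sample 1 and 757 without sample 2. Scaling all samples to the same total moved the median of all genes from 0.0029 to 0.056 and gave 2377 higher and 1304 lower genes in place of 1417 and 1845.

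**Figure D1:**
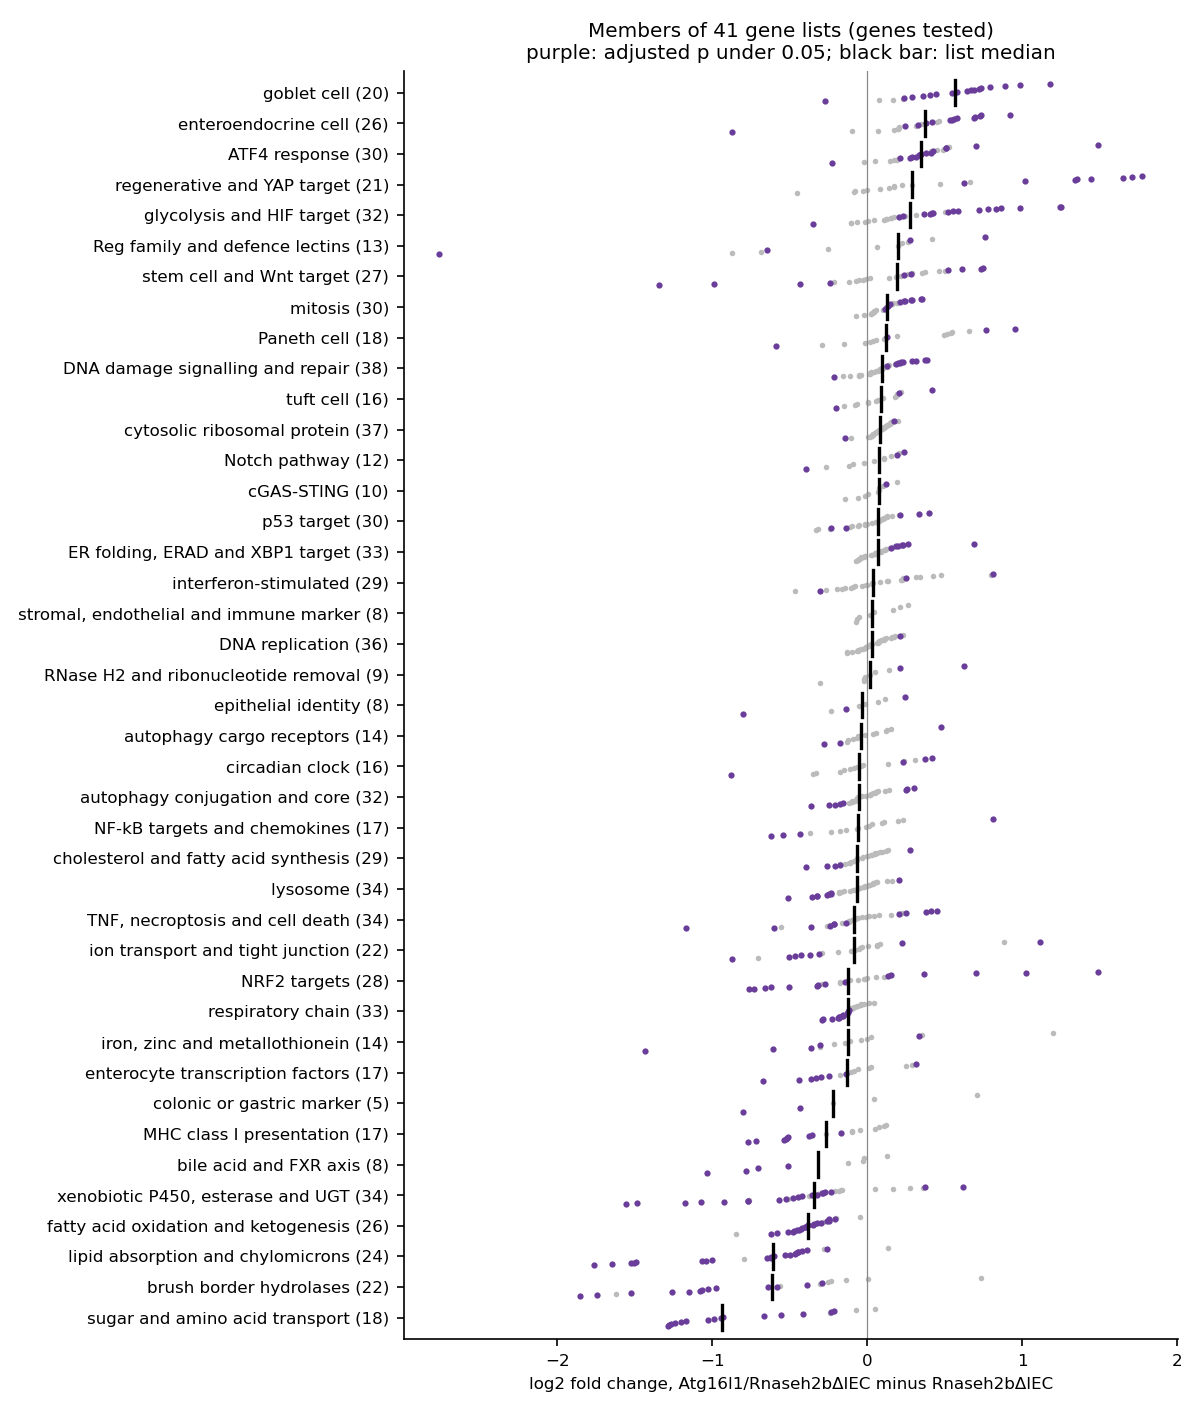
Log2 fold change, Atg16l1/Rnaseh2bΔIEC minus Rnaseh2bΔIEC, of the tested members of 41 gene lists (1 row a list, 1 point a gene), with points coloured by whether the gene passed an adjusted p of 0.05 and a bar at each list's median. The list medians run from -0.94 for sugar and amino acid transport to 0.56 for goblet cell genes.

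The absorptive program of the enterocyte, the villus cell that digests and takes up nutrients, was lower in the double knockouts. Of 22 tested brush border hydrolases, the enzymes that finish digestion at the cell surface, 13 fell and 0 rose (11 and 0 with correlated pairs, 14 and 0 in lane 2), with a median log2 difference of -0.61. Of 24 genes of lipid absorption 21 fell and 0 rose (11 and 0 with correlated pairs, 20 and 0 in lane 2), with a median of -0.61, and of 18 genes of sugar and amino acid transport 15 fell and 0 rose (11 and 0 with correlated pairs, 13 and 0 in lane 2), with a median of -0.94. Over all genes tested the median was 0.00 and 14.4% fell. In the lane 2 estimate the 3 medians were -0.60, -0.57 and -0.74.

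*Lct* encodes lactase, which splits milk sugar. It was at 12.01 and 12.15 in Rnaseh2bΔIEC and at 10.42, 10.65, 9.89 and 9.94 in Atg16l1/Rnaseh2bΔIEC samples. The groups did not overlap, which was required of the largest falls named here. The difference of -1.85 (standard error 0.35, limma adjusted p = 0.0027) is 3.61-fold. WT samples lay at 9.98 to 11.18, below both Rnaseh2bΔIEC samples. *Ace*, a peptidase of the brush border, was at 11.60 and 11.70 in Rnaseh2bΔIEC and at 10.42, 10.59, 9.23 and 9.39 in the double knockouts. Its difference was -1.74 over all samples and -1.15 in lane 2, since the lane 1 double knockouts were the lowest. *Ggt1*, which cleaves glutathione, the sucrase-isomaltase gene *Sis* and the trehalase gene *Treh* fell by 1.53, 1.15 and 1.08. The peptidase genes *Enpep*, *Mep1b* and *Mep1a* fell by 1.06, 1.03 and 0.64, while *Anpep* and *Dpp4* fell by 0.58 and 0.29 with an adjusted p of 0.062 and 0.089 under correlated pairs.

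In lipid absorption the apolipoproteins, the protein shell of chylomicrons and other lipoproteins, led. *Apoc3*, which slows lipoprotein clearance, was at 11.63 and 11.77 in Rnaseh2bΔIEC and at 9.80, 10.22, 9.78 and 9.93 in the double knockouts, a difference of -1.76 (standard error 0.23, limma adjusted p = 0.00035). *Apoa2*, a protein of high-density lipoprotein, was at 7.50 and 7.54 against 5.75, 5.82, 5.38 and 5.51, with WT at 5.24 to 5.62. Both groups of *Apoa2* were tight, and the double knockouts lay close to WT while the Rnaseh2bΔIEC samples stood above it. *Apoa4* and *Apoa1* fell by 1.53 and 1.49. *Fabp1*, an intracellular fatty acid carrier, was at 15.77 and 16.01 against 14.04, 14.74, 14.06 and 14.14, and its difference of -1.64 (limma adjusted p = 0.016) had an adjusted p of 0.073 with correlated pairs. *Fabp2* fell by 1.07, the triglyceride synthesis genes *Mogat2*, *Dgat1* and *Dgat2* by 1.04, 0.53 and 0.47, and *Creb3l3*, a transcription factor of lipid genes, by 1.51 (adjusted p with correlated pairs 0.051).

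Among the transporters, the peptide carrier *Slc15a1* was at 9.33 and 9.45 in Rnaseh2bΔIEC and at 8.45, 8.62, 7.67 and 7.67 in the double knockouts. The neutral amino acid carrier *Slc6a19* was at 11.53 and 11.53 against 10.35, 10.60, 9.96 and 10.11. The double knockouts were the lower group for both genes, with differences of -1.28 and -1.28 (limma adjusted p = 0.0023 and 0.00069). The fructose carrier *Slc2a5* and the fructose enzyme gene *Khk* fell by 1.20 and 0.94, the glucose carrier *Slc5a1* by 1.03, and *Slc2a2*, another glucose carrier, by 1.17 with an adjusted p of 0.071 under correlated pairs. The inositol carrier *Slc5a11* and the phosphate carrier *Slc34a2* were among the 12 largest falls, at -1.98 and -1.74. So was *G6pc*, glucose-6-phosphatase, which was at 10.34 and 10.37 against 8.40, 8.69, 7.79 and 7.71, a 4.63-fold lower level.

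Promoters of 4 of these genes are shown, since they have the largest falls of the brush border and lipid lists among the genes with a RefSeq entry. Each window runs 5′ to 3′ on the gene's strand from 250 bases before the start to 50 after it, in GRCm38.p6, and capitals mark a TATA box (TATAAA) or the CDX motif (TTTATG), both searched on both strands.
Lct, chr1:128328269-128328568, minus strand: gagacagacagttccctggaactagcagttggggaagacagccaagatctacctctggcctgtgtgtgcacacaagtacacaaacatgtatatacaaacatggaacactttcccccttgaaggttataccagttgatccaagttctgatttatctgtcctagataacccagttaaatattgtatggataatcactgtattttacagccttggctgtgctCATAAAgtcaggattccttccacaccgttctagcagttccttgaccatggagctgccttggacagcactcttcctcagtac
Ace, chr11:105967698-105967997, plus strand: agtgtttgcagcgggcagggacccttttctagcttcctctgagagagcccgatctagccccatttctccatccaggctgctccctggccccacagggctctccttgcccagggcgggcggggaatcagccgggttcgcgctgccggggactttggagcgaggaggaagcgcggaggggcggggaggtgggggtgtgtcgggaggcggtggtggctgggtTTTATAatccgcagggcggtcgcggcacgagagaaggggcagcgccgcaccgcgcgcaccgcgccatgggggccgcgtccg
Fabp1, chr6:71199629-71199928, plus strand: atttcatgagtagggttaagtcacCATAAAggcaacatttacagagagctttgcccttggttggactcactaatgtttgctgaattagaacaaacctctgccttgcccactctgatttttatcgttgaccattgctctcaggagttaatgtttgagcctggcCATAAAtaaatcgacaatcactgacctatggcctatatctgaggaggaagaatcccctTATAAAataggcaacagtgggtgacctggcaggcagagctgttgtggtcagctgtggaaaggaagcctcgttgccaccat
Ggt1, chr10:75563882-75564181, plus strand: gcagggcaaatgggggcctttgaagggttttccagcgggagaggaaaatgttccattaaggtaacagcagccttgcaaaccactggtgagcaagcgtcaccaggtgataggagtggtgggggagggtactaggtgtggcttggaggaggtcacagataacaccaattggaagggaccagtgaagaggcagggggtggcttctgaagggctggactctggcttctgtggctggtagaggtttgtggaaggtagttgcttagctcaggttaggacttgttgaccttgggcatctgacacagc

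The CDX letters in the *Lct* window lie 31 bases before the start and the TATAAA match of *Ace* also 31 bases before it. Both matches are on the strand opposite to the gene. In *Fabp1* a TATA box lies 30 bases before the start and CDX matches lie 88 and 226 bases before it, and the *Ggt1* window holds neither motif. Read on opposite strands, TATAAA and TTTATG share all but 1 letter. Of the genes tested, 10043 had a promoter entry. TATAAA was in 8.85% of the promoters of genes that fell, in 6.83% of those that rose and in 7.20% of all. Among changes over 2-fold it was in 27.2% of 81 falls and in 26.1% of 23 rises, and TTTATG was in 18.5% and 17.4% of these and in 6.27% of all. As a description, both shares were higher among large changes of either direction than in all promoters. The HNF4 motif CAAAGTCCA was in 0.960% of the falls, 0.180% of the rises and 0.508% of all, and the HNF1 motif GTTAATNAT in 1.23%, 0.629% and 0.647%, which are 14 and 18 promoters among the 1458 falls. A match is a description of these letters and not a shown binding site.

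**Figure D2:**
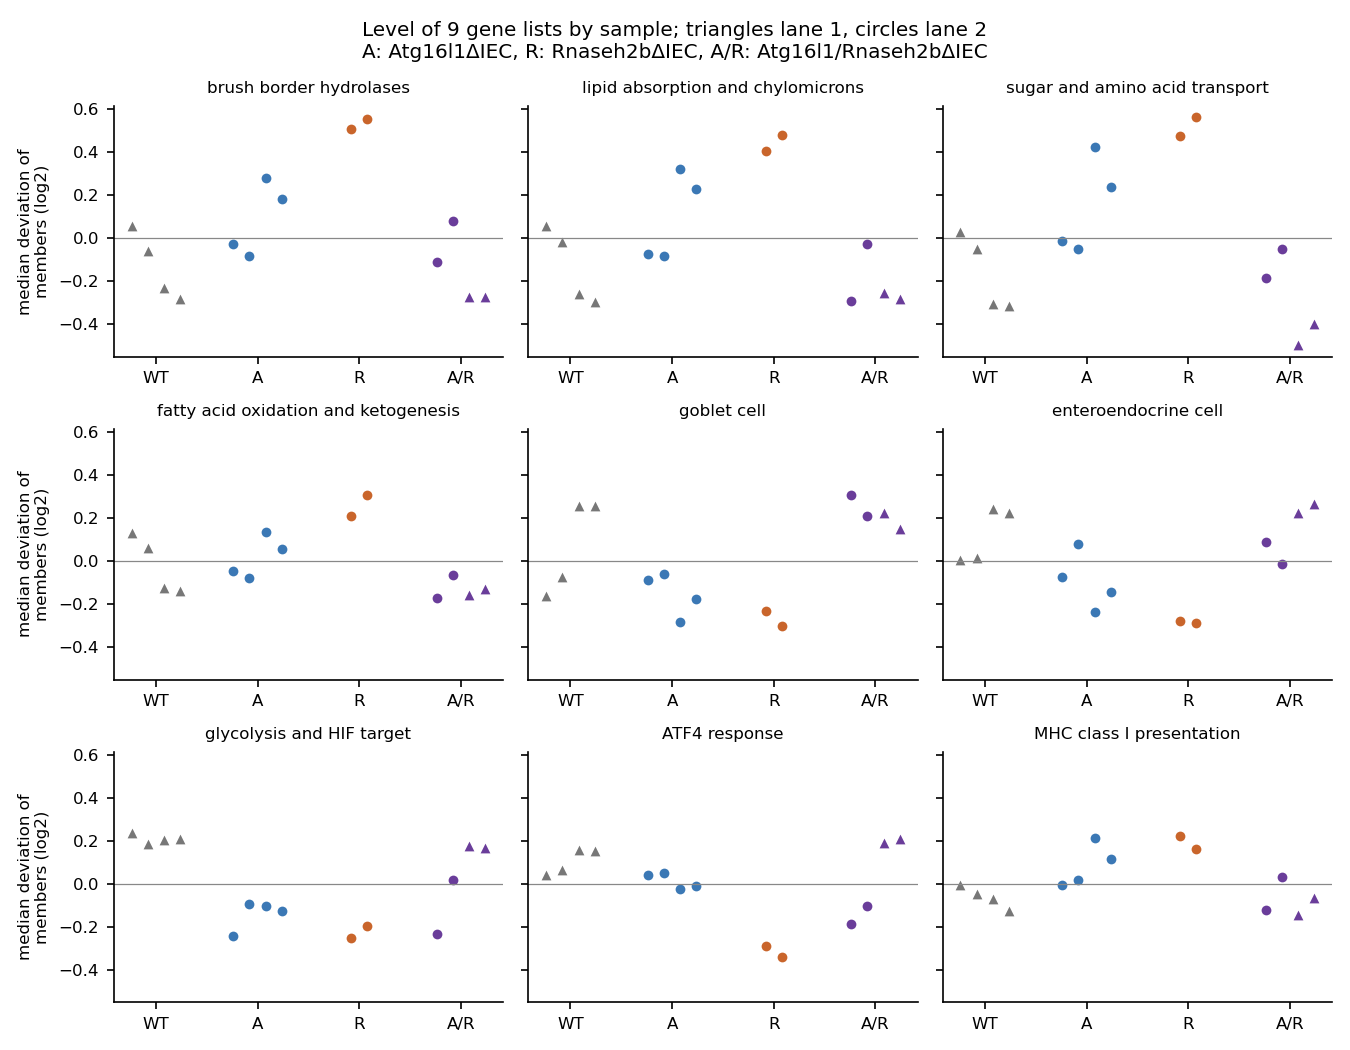
Level of 9 gene lists in each of the 14 samples, as the median over the list's tested genes of the deviation from the gene's mean over all samples, in log2 units. The Rnaseh2bΔIEC samples are the highest in the brush border list, at 0.51 and 0.55, and the lowest in the enteroendocrine list, at -0.28 and -0.29.

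Genes of fatty acid oxidation were lower as well. Of 26 genes of fatty acid oxidation and ketone production 22 fell and 0 rose (11 and 0 with correlated pairs, 16 and 0 in lane 2), with a median of -0.38. The mitochondrial enzyme *Hadh*, the peroxisomal enzyme *Ehhadh* and *Cpt1a*, which admits fatty acids to mitochondria, fell by 0.62, 0.58 and 0.51. Of 33 respiratory chain genes 14 fell and 0 rose (1 and 0 with correlated pairs, 5 and 1 in lane 2), with no fall larger than 0.29.

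Of 34 genes of drug and toxin metabolism 18 fell and 2 rose (6 and 2 with correlated pairs, 16 and 4 in lane 2), with a median of -0.34. *Cyp3a11*, a drug-oxidizing P450, was at 14.21 and 14.15 in Rnaseh2bΔIEC and at 13.15, 13.21, 12.09 and 12.04 in the double knockouts. The lane 1 double knockouts were the lowest, and the difference was -1.56 over all samples and -0.999 in lane 2. *Cyp2b10* and *Cyp2c29* fell by 1.48 and 1.18. Their nuclear receptors *Nr1i3* and *Nr1i2* fell by 0.77 and 0.23, with adjusted p of 0.19 and 0.17 under correlated pairs. The rises were of *Cyp1b1*, by 0.62, and *Ugt1a6b*, by 0.38. P450 genes of a family are close copies, so their single values are uncertain.

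Of 8 genes of the bile acid axis 4 fell and 0 rose (3 and 0 with correlated pairs, 4 and 0 in lane 2). *Slc51b* and *Slc51a*, the subunits of the bile acid exporter, fell by 1.03 and 0.78, and the bile acid receptor *Nr1h4* by 0.51 (adjusted p = 0.0503 with correlated pairs). Its target *Nr0b2* was at 4.74 and 4.74 in Rnaseh2bΔIEC and at 4.02, 4.16, 3.96 and 3.99 in the double knockouts, a fall of 0.71 at a low level.

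Of 17 transcription factors of the enterocyte 7 fell and 1 rose (3 and 1 with correlated pairs, 10 and 1 in lane 2). *Hnf4g*, a regulator of brush border genes, was at 11.57 and 11.60 in Rnaseh2bΔIEC and at 10.93, 11.12, 10.79 and 10.82 in the double knockouts, a difference of -0.67 (standard error 0.11, limma adjusted p = 0.0013). Its close relative *Hnf4a* differed by -0.06 (95% confidence interval -0.14 to 0.02) and did not pass. *Elf3*, an epithelial Ets factor, was the member that rose, by 0.31. *Krt20*, a keratin of mature villus cells, fell by 0.80.

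Goblet cell and enteroendocrine genes were higher in the double knockouts. Of 20 goblet cell genes 16 rose and 1 fell (8 and 0 with correlated pairs, 16 and 1 in lane 2), with a median of 0.56 over all samples and 0.55 in lane 2. Of all genes tested, 11.1% rose over all samples, 1.51% with correlated pairs and 11.9% in lane 2. *Clca1*, a secreted protein of goblet granules, was at 7.55 and 7.26 in Rnaseh2bΔIEC and at 8.61, 8.71, 8.60 and 8.44 in the double knockouts. All 4 lay above both, by 1.18 (standard error 0.13, limma adjusted p = 0.00014). *Fcgbp*, a protein of the mucus layer, was at 14.74 and 14.61 against 15.75, 15.66, 15.67 and 15.57. The trefoil peptide gene *Tff3* and the mucin folding enzyme gene *Agr2* rose by 0.79 and 0.73. *Muc2*, the main gel-forming mucin, and *Spdef*, a factor of goblet cell maturation, rose by 0.72 and 0.44, with adjusted p of 0.073 and 0.099 under correlated pairs. The member that fell was *Muc13*, a mucin of the cell surface, by 0.27 (adjusted p = 0.059 with correlated pairs).

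Of 26 enteroendocrine genes 13 rose and 1 fell (4 and 1 with correlated pairs, 11 and 1 in lane 2), with a median of 0.37. *Neurog3*, the factor that starts the endocrine fate, was at 7.58 and 7.57 in Rnaseh2bΔIEC and at 8.58, 8.35, 8.56 and 8.50 in the double knockouts, a difference of 0.93 (standard error 0.16, limma adjusted p = 0.0019). The granule proteins *Chgb* and *Chga* rose by 0.73 and 0.58, and *Tph1*, which makes serotonin, by 0.73. With correlated pairs the adjusted p was 0.054 for *Chgb* and 0.079 for *Tph1*, and in lane 2 it was 0.081 and 0.061. The hormone genes did not move together. *Ghrl*, which encodes ghrelin, rose by 0.69 (adjusted p = 0.074 with correlated pairs), *Nts*, which encodes neurotensin, fell by 0.87, and *Gcg*, *Gip*, *Cck* and *Sst* did not pass, at -0.10, 0.37, 0.35 and 0.31.

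Of 18 Paneth cell genes 3 rose and 1 fell (1 and 0 with correlated pairs, 5 and 1 in lane 2). *Itln1*, a lectin for microbial sugars, was at 13.90 and 13.65 in Rnaseh2bΔIEC and at 14.98, 14.63, 14.72 and 14.58 in the double knockouts, a rise of 0.95. *Lyz1*, the Paneth cell lysozyme, was at 12.41 and 12.23 against 13.13, 12.92, 12.97 and 12.89, and its difference of 0.66 did not pass (adjusted p = 0.056). The groups did not overlap for either gene. Of 16 tuft cell genes 2 rose and 1 fell (0 and 0 with correlated pairs, 5 and 1 in lane 2). Of 12 genes of the Notch pathway, which sets absorptive against secretory fate, 2 rose and 1 fell (0 and 1 with correlated pairs, 2 and 2 in lane 2), and the member that fell was the ligand *Dll1*, by 0.40. Over all samples 22.2% of the Paneth cell, 18.8% of the tuft cell and 25% of the Notch genes were called, against 25.5% of all genes.

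**Figure D3:**
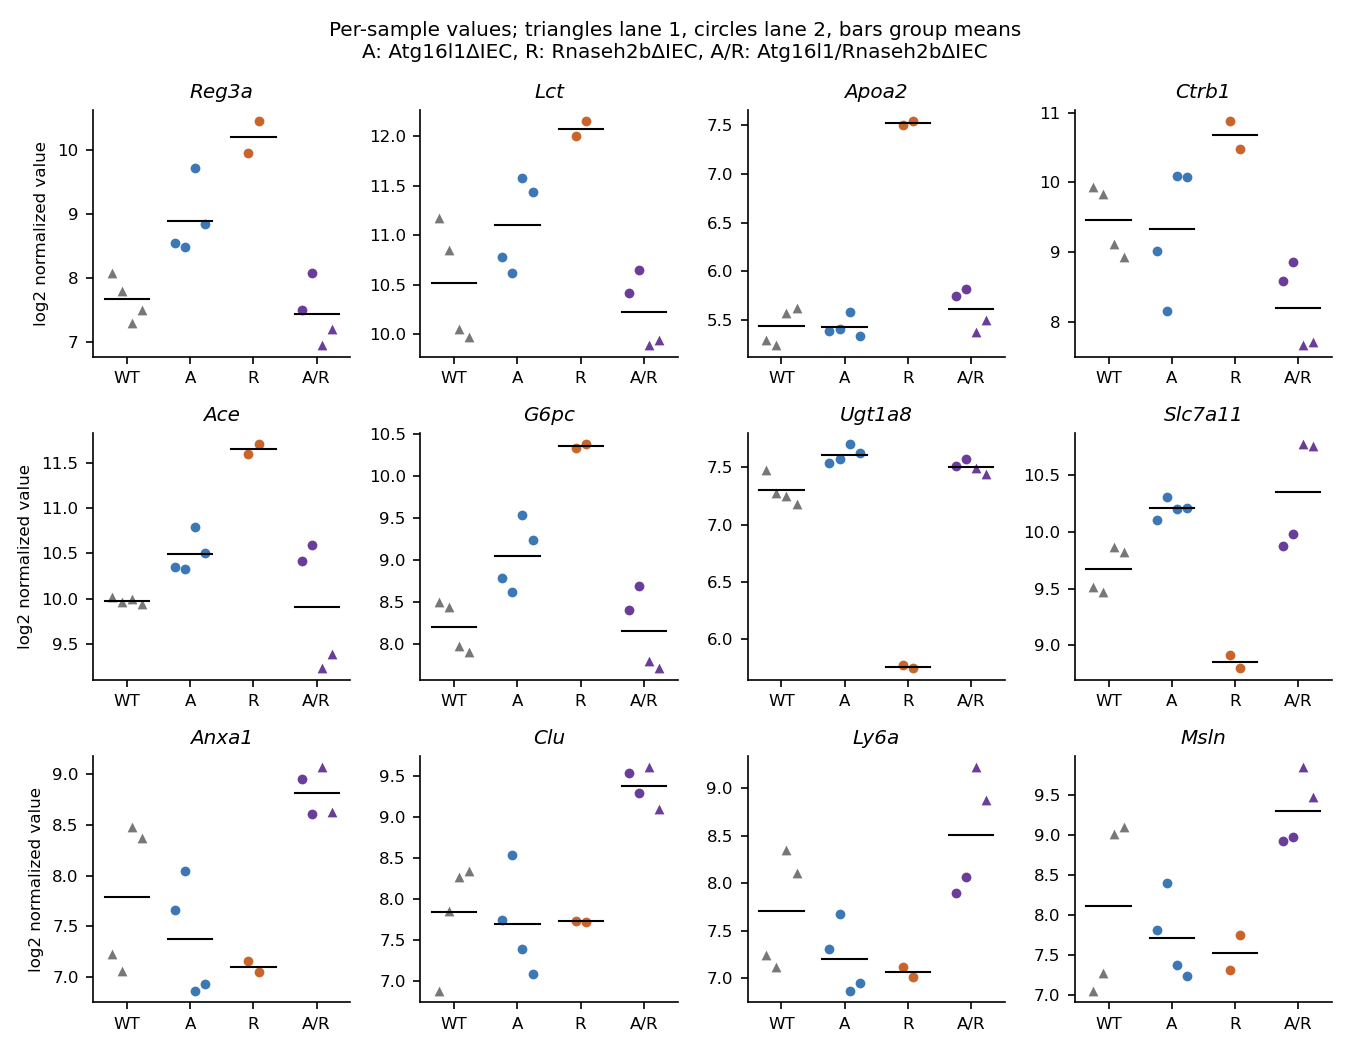
Log2 normalized values of 12 genes in the samples of the 4 genotypes, with triangles for lane 1 and circles for lane 2. Lct and Apoa2 are highest in the 2 Rnaseh2bΔIEC samples, and the WT samples of Msln lie at 2 levels, 7.05 and 7.28 in samples 1 and 2 and 9.02 and 9.11 in samples 3 and 4.

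The largest fall was of *Reg3a* (ENSMUSG00000079516, GRCm38 chromosome 6 from 78380709 to 78383827), a secreted antimicrobial lectin. It was at 9.96 and 10.45 in Rnaseh2bΔIEC and at 7.51, 8.08, 6.95 and 7.21 in Atg16l1/Rnaseh2bΔIEC samples, a 6.80-fold lower level (log2 difference -2.77, standard error 0.35, limma adjusted p = 0.00034). Its relatives *Reg3b* and *Reg3g* did not pass, at -0.68 (adjusted p = 0.24) and -0.25 (adjusted p = 0.41). *Reg3b* was at 8.39 and 8.19 against 8.50, 8.06, 6.99 and 6.88, so the lane 1 double knockouts were lower and those of lane 2 overlapped Rnaseh2bΔIEC. The chymotrypsinogen gene *Ctrb1*, the carotene-cleaving enzyme gene *Bco1*, the potassium channel subunit gene *Kcns3* and *Bst1*, a surface enzyme that uses NAD, were also among the 12 largest falls, at -2.47, -2.14, -2.11 and -1.73. All 12 passed with correlated pairs.

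Several of the 12 largest rises were genes of the regenerative program, which crypt cells use after injury. Of 21 genes of this program and of the YAP pathway 8 rose and 0 fell (2 and 0 with correlated pairs, 4 and 1 in lane 2), with a median of 0.29 over all samples and 0.18 in lane 2. These are 38.1% called against 25.5% of all genes over all samples. In lane 2 they are 23.8% against 27.1%, so the lane 2 share was below that of all genes. *Anxa1*, an annexin that limits inflammation, was at 7.16 and 7.05 in Rnaseh2bΔIEC and at 8.96, 8.60, 9.07 and 8.63 in the double knockouts, 3.27-fold higher. *Clu*, a marker of revival stem cells, was at 7.74 and 7.72 against 9.54, 9.30, 9.61 and 9.10, 3.15-fold higher. *Ly6a*, also called Sca-1, was at 7.12 and 7.01 against 7.89, 8.06, 9.22 and 8.88, and the mesothelin gene *Msln* at 7.31 and 7.75 against 8.93, 8.98, 9.85 and 9.48. The groups overlapped in none of these 4 genes, which was required of the largest rises named here. With correlated pairs the adjusted p was 0.038 for *Anxa1*, 0.1 for *Clu*, 0.062 for *Ly6a* and 0.086 for *Msln*. The limma adjusted p in lane 2 was 0.021, 0.019, 0.077 and 0.096 in the same order, so *Ly6a* and *Msln* did not pass there. In WT samples 1 and 2 *Anxa1* was at 7.23 and 7.06 and in samples 3 and 4 at 8.48 and 8.37, so the male and the female pair of WT also lay apart.

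*Slc7a11*, the cystine importer that feeds glutathione synthesis, was at 8.92 and 8.80 in Rnaseh2bΔIEC and at 9.88, 9.99, 10.77 and 10.76 in the double knockouts. Its rise of 1.49 (standard error 0.22, limma adjusted p = 0.00078) was 1.08 in lane 2, with the lane 1 samples the highest. The largest rise of a named autosomal gene was of *2210407C18Rik*, at 10.14 and 10.06 against 11.66, 11.67, 12.75 and 12.53. The annexin gene *Anxa10* and the interleukin-1 receptor antagonist gene *Il1rn* rose by 1.59 and 1.36. The calcium-binding protein gene *S100a6* and the basement membrane collagen genes *Col4a2* and *Col4a1* rose by 1.36, 1.36 and 1.35, with adjusted p of 0.051, 0.086 and 0.11 under correlated pairs. In lane 2 the limma adjusted p of these genes was 0.044, 0.067 and 0.12.

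Of 27 stem cell and Wnt target genes 6 rose and 4 fell (3 and 2 with correlated pairs, 11 and 3 in lane 2). *Lgr5*, the receptor that marks crypt base stem cells, was at 11.65 and 11.87 in Rnaseh2bΔIEC and at 12.39, 12.30, 12.66 and 12.66 in the double knockouts, and *Myc* at 9.81 and 9.77 against 10.78, 10.69, 10.29 and 10.34. Both rose, by 0.75 and 0.74. *Olfm4*, an abundant stem cell transcript, went the other way, at 11.30 and 10.83 against 10.02, 9.38, 9.71 and 9.77, and its fall of 1.34 had an adjusted p of 0.17 with correlated pairs. *Notum*, a secreted Wnt inhibitor, fell by 0.99.

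The autophagy genes other than the target follow. Of 32 core and conjugation genes 3 rose and 5 fell (0 and 0 with correlated pairs, 2 and 2 in lane 2), or over all samples 25% called against 25.5% of all genes. *Wipi1* and *Map1lc3b*, which act on the forming autophagosome, fell by 0.36 and 0.21, and *Ulk2* and the paralog *Atg16l2* rose by 0.30 and 0.25. With correlated pairs the adjusted p of these 4 genes was 0.1, 0.077, 0.17 and 0.24. *Atg5* and *Atg12*, whose products form the conjugate that ATG16L1 binds, did not pass, at -0.06 and -0.07. Of 14 cargo receptor genes 1 rose and 2 fell (0 and 0 with correlated pairs, 1 and 3 in lane 2), among them *Ncoa4*, the ferritin receptor, at 0.48 (adjusted p = 0.061 with correlated pairs). Over all samples 21.4% of the cargo receptor genes were called. *Sqstm1*, which encodes the cargo receptor p62, was at 12.45 and 12.39 in Rnaseh2bΔIEC and at 12.27, 12.34, 12.62 and 12.60 in the double knockouts, on both sides of it. Of 34 lysosome genes 1 rose and 8 fell (0 and 2 with correlated pairs, 3 and 13 in lane 2), or over all samples 26.5% called against 25.5% of all genes, with the cathepsin genes *Ctsa* and *Ctsz* at -0.51 and -0.35 and *Tfeb*, a regulator of lysosome genes, at -0.32 (adjusted p = 0.054 with correlated pairs).

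NRF2 targets, the antioxidant genes, split, with 6 of 28 higher and 9 lower (3 and 2 with correlated pairs, 5 and 9 in lane 2). The aldehyde reductase gene *Akr1b8* was at 8.12 and 8.21 in Rnaseh2bΔIEC and at 8.86, 8.85, 9.53 and 9.53 in the double knockouts, and *Hmox1*, which degrades heme, at 8.14 and 8.26 against 8.51, 8.69, 9.20 and 9.21. Both rose, with the lane 1 samples highest. The glutathione transferase genes *Gstm3*, *Gstm1* and *Gsta1* fell by 0.76, 0.73 and 0.66, the first with an adjusted p of 0.094 and the second with one of 0.097 under correlated pairs.

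Many genes of the amino acid and hypoxia responses rose, with lower list medians in lane 2. Of 30 ATF4 response genes 15 rose and 1 fell (5 and 0 with correlated pairs, 11 and 1 in lane 2), with a median of 0.35 over all samples and 0.16 in lane 2. *Ddit4*, an inhibitor of mTOR signalling, rose by 0.70 and the serine synthesis gene *Psat1* by 0.51. Of 32 genes of glycolysis and the HIF response 16 rose and 1 fell (8 and 0 with correlated pairs, 11 and 1 in lane 2), with a median of 0.28 over all samples and 0.13 in lane 2. *Hk2*, the inducible hexokinase, was at 9.52 and 9.64 in Rnaseh2bΔIEC and at 10.64, 10.67, 11.02 and 10.97 in the double knockouts, a rise of 1.24 (standard error 0.12, limma adjusted p = 8.7e-05). *Adm*, which encodes adrenomedullin, and *Pfkfb3*, which speeds glycolysis, rose by 1.25 and 0.99, while *Hif1a* fell by 0.35 (adjusted p = 0.051 with correlated pairs). The level of the glycolysis and HIF list, as the median deviation from each gene's mean, was -0.25 and -0.20 in Rnaseh2bΔIEC samples. It was -0.23, 0.02, 0.18 and 0.17 in double knockouts 1 to 4. Double knockout 1 thus lay between the Rnaseh2bΔIEC samples, and the lane 1 samples were the higher pair.

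Genes of the response to DNA damage follow. Of 30 p53 targets 3 rose and 2 fell (0 and 0 with correlated pairs, 8 and 2 in lane 2). These are 16.7% called against 25.5% of all genes over all samples, and 33.3% against 27.1% in lane 2. *Ccng1*, a p53 target, was at 12.79 and 12.73 in Rnaseh2bΔIEC and at 13.08, 12.98, 12.80 and 12.70 in the double knockouts. The lane 2 double knockouts lay above and those of lane 1 overlapped, with a difference of 0.13 over all samples (95% confidence interval -0.04 to 0.30) and 0.27 in lane 2 (limma adjusted p = 0.0021). *Inka2*, also named Fam212b, was likewise at 0.21 over all samples (adjusted p = 0.29) and at 0.43 in lane 2 (adjusted p = 0.0096). *Trp53*, which encodes p53, differed by 0.16 (adjusted p = 0.057) and *Mdm2*, its inhibitor and target, by 0.08 (95% confidence interval -0.04 to 0.20). *Ddit4l* and *Ano3* did not pass, with 95% confidence intervals of -0.15 to 0.27 and -0.15 to 0.34.

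Of 38 genes of DNA damage signalling and repair 10 rose and 1 fell (1 and 0 with correlated pairs, 12 and 2 in lane 2), or over all samples 28.9% called against 25.5% of all genes. The damage kinase genes *Atr*, *Atm* and *Chek1* rose by 0.38, 0.38 and 0.32, with adjusted p of 0.035, 0.16 and 0.056 under correlated pairs. Of 30 mitosis genes 10 rose and 0 fell (0 and 0 with correlated pairs, 13 and 0 in lane 2), and of 36 DNA replication genes 1 rose, *Pole* by 0.21 (adjusted p = 0.16 with correlated pairs), and 0 fell, with 4 rises and 0 falls in lane 2. Of 9 genes of ribonucleotide removal, *Rnaseh2b* and *Top1*, which cuts DNA at ribonucleotides, rose, and 1 of them passed with correlated pairs and 2 in lane 2. Over all samples 33.3% of the mitosis, 2.8% of the DNA replication and 22.2% of the ribonucleotide removal genes were called.

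The counts of interferon-stimulated genes depended on the samples used. Of 29 tested 2 rose and 1 fell (0 and 0 with correlated pairs, 0 and 7 in lane 2), or over all samples 10.3% called against 25.5% of all genes. Their median was 0.04 over all samples and -0.08 in lane 2. *Cxcl10*, a chemokine induced by interferon, was at 4.58 and 4.61 in Rnaseh2bΔIEC and at 4.74, 5.10, 5.77 and 6.03 in the double knockouts. Its rise of 0.81 was 0.32 in lane 2 and had an adjusted p of 0.16 with correlated pairs. *Ifit1*, an interferon-induced RNA-binding protein gene, was at 6.54 and 6.50 against 6.10, 6.42, 7.35 and 7.56, on both sides of Rnaseh2bΔIEC. Of 10 genes of cGAS-STING sensing 1 rose, *Ddx41* by 0.12 (adjusted p = 0.33 with correlated pairs), and 0 fell, and in lane 2 0 rose and 0 fell. Over all samples 10% of the sensing genes were called.

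Of 17 genes of MHC class I presentation 9 fell and 0 rose (3 and 0 with correlated pairs, 8 and 1 in lane 2), with a median of -0.27 over all samples and -0.35 in lane 2. *H2-Q2* was at 11.34 and 11.45 in Rnaseh2bΔIEC and at 10.55, 10.87, 10.51 and 10.57 in the double knockouts. The peptide transporter gene *Tap2* and the light chain gene *B2m* fell by 0.51 and 0.37, the latter with an adjusted p of 0.064 under correlated pairs. H2 genes are close copies, so their single values are uncertain.

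Of 34 genes of TNF signalling and cell death 5 rose and 7 fell (2 and 2 with correlated pairs, 4 and 6 in lane 2). *Il18*, an epithelial cytokine, was at 8.90 and 9.05 in Rnaseh2bΔIEC and at 7.75, 8.26, 7.64 and 7.57 in the double knockouts, a fall of 1.17. The death ligand gene *Tnfsf10* fell by 0.60, and the inflammasome sensor gene *Nlrp6* and the necroptosis kinase gene *Ripk3* rose by 0.41 and 0.25. Of 17 NF-kB targets and chemokines 1 rose and 3 fell (0 and 2 with correlated pairs, 1 and 5 in lane 2), among them *Ccl25*, which attracts T cells to the small intestine, at -0.62. Over all samples 35.3% of the TNF and cell death genes and 23.5% of the NF-kB targets and chemokines were called, against 25.5% of all genes. *Pigr*, the antibody transporter, fell by 0.65.

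Of 33 genes of endoplasmic reticulum folding 7 rose and 0 fell (2 and 0 with correlated pairs, 6 and 1 in lane 2), led by *Ern2*, the IRE1 form of goblet cells, at 0.69, and *Xbp1* did not pass at -0.07. Of 29 genes of cholesterol and fatty acid synthesis 1 rose and 4 fell (0 and 0 with correlated pairs, 3 and 2 in lane 2), and of 37 cytosolic ribosomal protein genes 1 rose and 1 fell (0 and 0 with correlated pairs, 1 and 0 in lane 2). Of 14 metal genes 1 rose and 4 fell (0 and 1 with correlated pairs, 1 and 3 in lane 2). *Slc30a2*, a zinc carrier of secretory granules, was at 10.67 and 10.49 in Rnaseh2bΔIEC and at 9.86, 9.85, 8.37 and 8.52 in the double knockouts, a fall of 1.43 with the lane 1 samples the lowest. Of 22 genes of ion transport and tight junctions 2 rose and 6 fell (1 and 3 with correlated pairs, 1 and 6 in lane 2), with the carbonic anhydrase gene *Car2* at 1.12 and the anion exchanger gene *Slc26a6* at -0.87. Of 16 clock genes 3 rose and 1 fell (0 and 1 with correlated pairs, 2 and 2 in lane 2), and the member that fell was *Hlf*, by 0.88. Of 5 colonic or gastric markers 0 rose and 2 fell (0 and 2 with correlated pairs, 0 and 2 in lane 2). Over all samples 25.5% of all genes were called. The shares were 21.2% of the folding, 17.2% of the cholesterol and fatty acid, 5.4% of the ribosomal protein and 25% of the clock genes. They were 35.7% of the metal genes, 36.4% of the ion transport and tight junction genes and 40% of the colonic or gastric markers.

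To ask whether deleting *Atg16l1* does the same with and without *Rnaseh2b*, the difference between Atg16l1/Rnaseh2bΔIEC and Rnaseh2bΔIEC was set beside that between Atg16l1ΔIEC and WT samples, with which it shares no sample. Against WT, 19.1% of the genes tested passed in Atg16l1ΔIEC organoids. The difference between the 2 effects itself passed for 35.1% of all genes, and for 2713 of the 3262. The 3262 were called on the first effect, which is part of this difference, so the second count is a description. Of 949 genes called in both comparisons, which are 29.1% of the first set and 38.7% of the second, 863 moved in opposite directions and 86 in the same direction. Over the 12804 genes, which are not independent replicates, the Pearson correlation of the effects was -0.44, and -0.37 with the lane 2 estimate. WT was in lane 1 and Atg16l1ΔIEC in lane 2, so lane and genotype cannot be told apart in the second effect. With the lane 2 estimate for the first, 746 of 872 genes called in both moved in opposite directions.

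**Figure D4:**
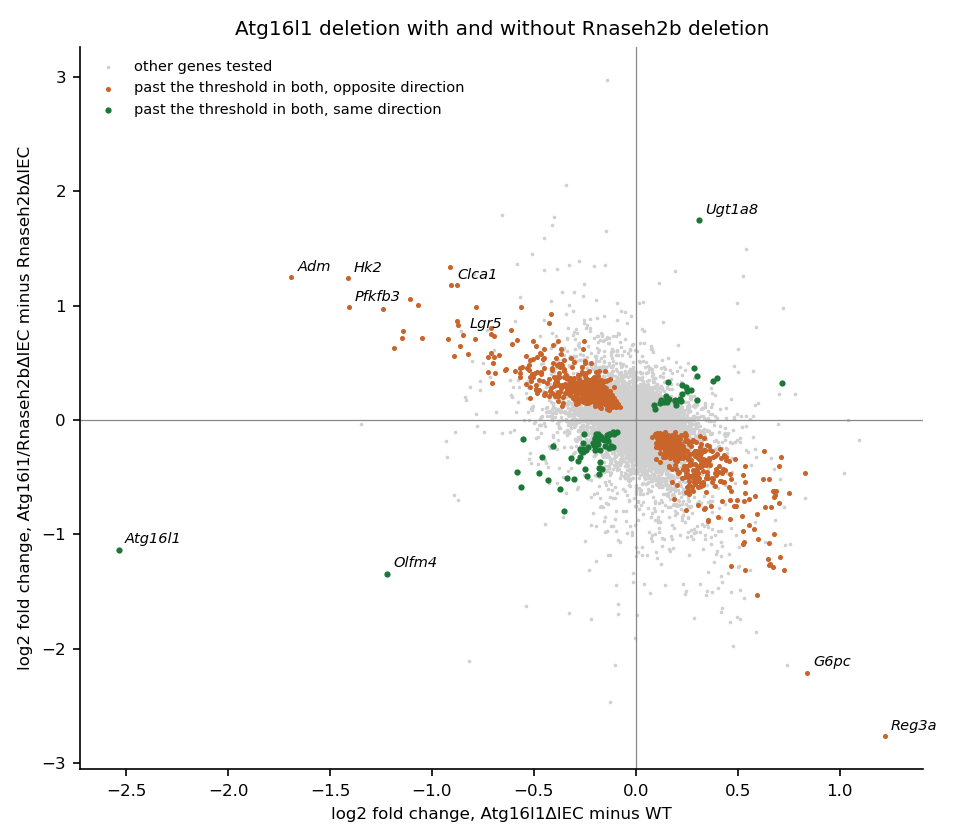
Log2 fold change of the 12804 genes tested, with Atg16l1ΔIEC minus WT on the x axis and Atg16l1/Rnaseh2bΔIEC minus Rnaseh2bΔIEC on the y axis. Of the 949 genes past the threshold in both, 863 lie in the quadrants of opposite direction.

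Genes of the groups above were among those that reversed. *Hk2* fell by 1.41 with *Atg16l1* loss alone and rose by 1.24 with it in Rnaseh2bΔIEC, and *Adm* fell by 1.69 and rose by 1.25. *Reg3a* rose by 1.22 and fell by 2.77, with a difference between the effects of -3.99 (standard error 0.45, limma adjusted p = 6.5e-05). *Lgr5* had group means of 12.72, 11.88, 11.76 and 12.50 in WT, Atg16l1ΔIEC, Rnaseh2bΔIEC and Atg16l1/Rnaseh2bΔIEC, and *Clca1* of 9.09, 8.18, 7.41 and 8.59. In both genes the single knockouts were the lowest genotypes. The effect in Rnaseh2bΔIEC was the higher for 15 of 20 goblet cell genes and the lower for 1, and in lipid absorption the lower for 22 of 24 and the higher for 0, by the test of the difference.

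Fewer genes moved alike. *Olfm4* fell by 1.22 with *Atg16l1* loss alone and by 1.34 in Rnaseh2bΔIEC, with a difference between the effects of -0.12 (adjusted p = 0.85). *Pnliprp2*, a lipase gene, fell by 0.56 and 0.59, and *Gclc*, which limits the rate of glutathione synthesis, rose by 0.40 and 0.37. With correlated pairs the adjusted p in Rnaseh2bΔIEC was 0.17 for *Olfm4*, 0.12 for *Pnliprp2* and 0.098 for *Gclc*, which was also at 0.077 in lane 2.

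The Rnaseh2bΔIEC mean lay beyond the means of the other 3 genotypes for 84.7% of the 3262 genes, against 59.5% of all genes tested. The test uses that mean, so the first share is a description. In the brush border, lipid and transport lists Rnaseh2bΔIEC had the highest mean in 19 of 22, 22 of 24 and 15 of 18 genes. The list medians of Rnaseh2bΔIEC minus WT were 0.57, 0.55 and 0.64, and those of Atg16l1/Rnaseh2bΔIEC minus WT -0.08, -0.10 and -0.06. In the ATF4 and enteroendocrine lists Rnaseh2bΔIEC had the lowest mean in 28 of 30 and 20 of 26 genes. Of all 12804 genes tested, Rnaseh2bΔIEC had the highest mean in 3856 and the lowest in 3762.

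The double knockouts differed among themselves in the size of these changes. The lane 1 pair was farther from Rnaseh2bΔIEC than the lane 2 pair for 111 of the 136 genes over 2-fold and for 60.1% of the 3262. Both pairs lay on the same side of Rnaseh2bΔIEC for all 3262 genes. In 3251 of these the 2 genotypes did not overlap, so this is a description of the calls.

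Genes near *Atg16l1* were described apart, because the floxed allele that only the Rnaseh2bΔIEC label lacks can carry flanking sequence of another strain. Within 5 Mb of its start 23 of 61 tested genes passed, or 37.7% against 25.5% of all genes, and 7 passed with correlated pairs. Within 5 Mb of *Rnaseh2b*, which is floxed in both groups, 13 of 60 passed. *Ugt1a8* (ENSMUSG00000089675, GRCm38 chromosome 1 from 88087813 to 88219004), a glucuronidation enzyme gene that starts 332 kb from *Atg16l1*, was at 5.77 and 5.74 in Rnaseh2bΔIEC and at 7.51, 7.58, 7.49 and 7.45 in the double knockouts. Its rise of 1.75 (standard error 0.08, limma adjusted p = 6.4e-08) placed it near WT, at 7.18 to 7.48, and Atg16l1ΔIEC, at 7.54 to 7.70. Its neighbours *Ugt1a7c* and *Ugt1a6a* fell by 0.48 and 0.52, the latter with an adjusted p of 0.17 under correlated pairs. Its neighbours *Ugt1a6b* and *Ugt1a10* rose by 0.38 and 0.21, the latter with an adjusted p of 0.15 under correlated pairs. Ugt1a genes share exons, so how reads were divided between them is uncertain. Farther away *Arl4c* rose by 0.57, and *Spp2* and *Slc19a3* fell by 0.47 and 0.49, with an adjusted p under correlated pairs of 0.087 for *Arl4c* and 0.068 for *Slc19a3*. The part of flanking sequence in these values was not tested.

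**Figure D5:**
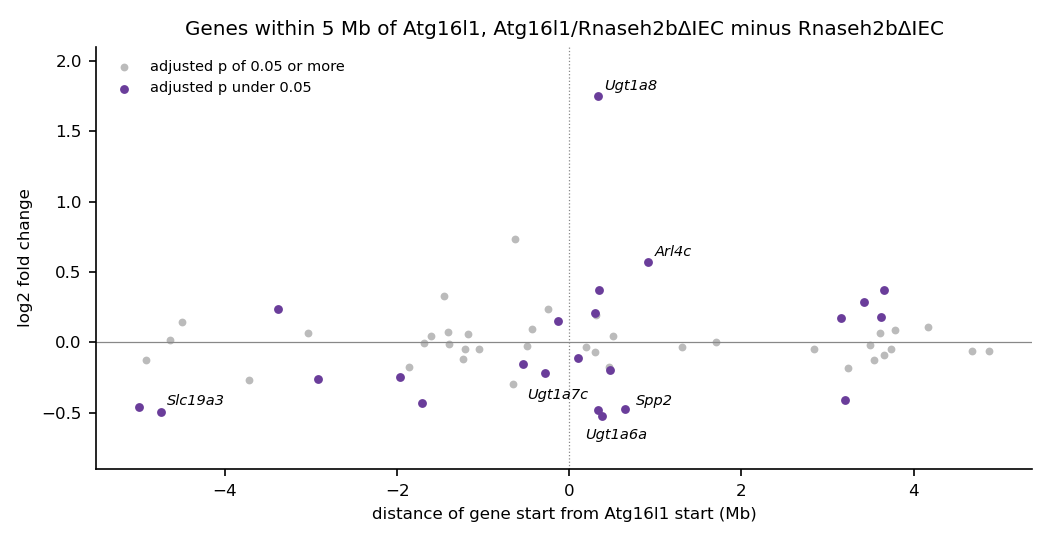
Log2 fold change, Atg16l1/Rnaseh2bΔIEC minus Rnaseh2bΔIEC, of the tested genes near Atg16l1 by the distance of their start from its start. Ugt1a8, at 1.75, is the highest point.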

How the data were processed

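The authors prepared stranded mRNA libraries from organoid RNA, and the labels list cutadapt, TopHat2, HTSeq, DESeq2 and the build GRCm38, with no versions. The deposited table holds log2 normalized values of 18781 genes in 14 samples, from -2.13 to 17.4. The authors' transformation is not given in the sources used here, and the depth per sample is unknown, so no count test was run. Low genes appear shrunken, so their fold changes are understated. Those of higher genes may be understated too. *Xist* was still at 7.56 to 7.80 in male samples, and *Ddx3y* at 6.04 to 6.20 in female samples. Gene IDs were named with GENCODE M21 (99.7% matched).

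The filter kept genes whose average over the samples reached 3.32, which is 10 after undoing the log. They entered limma 3.58.1 in R 4.3.3, with 1 mean per genotype over all 14 samples, a mean-variance trend and Benjamini-Hochberg adjustment at 0.05. All samples entered because 2 Rnaseh2bΔIEC samples give little estimate of the spread. The script was tested on simulated data. Lane came from the column names. The lane 2 estimate had lane as a covariate over all 14 samples. The fit with correlated pairs took samples 1 and 2, and 3 and 4, of a genotype as blocks with an estimated correlation of 0.65. Alternatives covered filters, scalings, pseudocounts, covariates and leaving out each sample. Promoters came from RefSeq.

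The comparison and the gene lists were chosen with earlier results of these data known, and lists are described by counts and medians only. Genes were named as follows: the targeted genes and those the study names, the 12 largest autosomal rises and falls that did not overlap between groups and kept their direction in lane 2, up to 4 called members of each list, and called genes within 5 Mb of Atg16l1 (up to 6). Other list members are named as known genes of their list, chosen after their values were seen.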

Additional observations from a re-analysis of the deposited data

Results flagged for a closer look

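In 111 groups of 4 samples, over the 37 genes tested for it, 2 samples lay far from the others of their genotype, where chance gives about 1 in 20 groups. They were *Atg16l1* in WT sample 2, at 9.54, and *Bst1* in Atg16l1/Rnaseh2bΔIEC sample 2, at 7.79.

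The effect of *Atg16l1* loss differed between organoids with and without *Rnaseh2b* for 30 of these 37 genes, by the limma contrast of the 2 differences, and for 21 of them also with correlated pairs. Over all genes tested it passed for 35.1%. Most of the 37 genes were chosen for a large difference between Atg16l1/Rnaseh2bΔIEC and Rnaseh2bΔIEC, which is part of this contrast, so their count and signs are a description. Given as the log2 effect in Rnaseh2bΔIEC minus that against WT, the difference was positive for the largest rises and negative for the largest falls. *Atg16l1* fell in both comparisons, at -1.13 in Rnaseh2bΔIEC and -2.54 against WT, so its difference of 1.40 is a smaller fall. The difference was 0.55 for *Rnaseh2b*, which rose in Rnaseh2bΔIEC. Among the largest rises it was 2.39 for *2210407C18Rik*, 2.18 for *Msln*, 2.12 for *Anxa1*, 2.04 for *Anxa10*, 1.96 for *Ly6a*, 1.95 for *Il1rn* and 1.80 for *Clu*. It was 1.68 for *S100a6*, 1.55 for *Col4a1*, 1.51 for *Col4a2*, 1.44 for *Ugt1a8* and 0.95 for *Slc7a11*.

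Among the largest falls it was -3.99 for *Reg3a*, -3.05 for *G6pc*, -2.89 for *Bco1*, -2.45 for *Slc5a11*, -2.44 for *Lct* and -2.34 for *Ctrb1*. It was -2.26 for *Ace*, -2.22 for *Apoc3*, -2.02 for *Bst1*, -1.90 for *Apoa2* and -1.52 for *Slc34a2*. Near *Atg16l1* it was 0.67 for *Arl4c*, -0.62 for *Ugt1a6a*, -0.76 for *Slc19a3*, -0.76 for *Ugt1a7c* and -0.29 for *Spp2*. WT and Atg16l1ΔIEC were sequenced in different lanes, and the part of lane in these differences was not tested gene by gene.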

How the results depend on the processing

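The number of genes called between Atg16l1/Rnaseh2bΔIEC and Rnaseh2bΔIEC (3262, with 1417 higher and 1845 lower) depended most on how the samples were counted. With correlated pairs it was 692 (193 higher, 499 lower), with the difference of the Atg16l1 effect at 1553 in place of 4499 and Atg16l1ΔIEC against WT at 384 in place of 2450. With the mean of each pair as 1 sample, limma called 0 genes (0 higher, 0 lower), with 2044 at an unadjusted p under 0.05, 0 for the difference of effects and 1 for Atg16l1ΔIEC against WT, in a design with 1 Rnaseh2bΔIEC pair. With a log2 fold change over 1 required, the counts were 136 (33 higher, 103 lower), 319 and 17. Lane as a covariate gave 2580 for the difference of effects and 1586 for Atg16l1ΔIEC against WT. Total scaling gave 2377 higher and 1304 lower genes. Leaving out 1 sample gave 757 to 3288 genes (268 to 1452 higher, 489 to 1836 lower), lowest without Rnaseh2bΔIEC sample 2, and 2704 to 4714 for the difference of effects. Apart from the shared total behind the scaling, the cause of these changes was not tested.

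Same-numbered samples of different genotypes did not deviate together (7 of 18 correlations over 0.1, from -0.41 to 0.46, with 3 samples correlating best with their own number), and with the replicate number as a block 2994 genes were called. Sex as a covariate, added after seeing the data, gave 2918. Ano3 turned to -0.015 with lane as a covariate and in the lane 2 samples, and Ddit4l lay between -0.042 (without Rnaseh2bΔIEC sample 2) and 0.160 (without Rnaseh2bΔIEC sample 1) with 1 sample left out, at -0.017 without Atg16l1/Rnaseh2bΔIEC sample 1. Of 589 other values of named genes, 528 kept direction and side of the threshold, 50 no longer passed and 9 newly passed. Of 656 list medians, 45 moved by more than the spread between replicates. Depth is unknown and limits low genes most.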
